A study of Mus musculus with 4 samples.

Results

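The nuclear genes for subunits of respiratory complexes II to V were followed in mouse inguinal fat, a white depot under the skin. The set was given as a list of 43 gene symbols. All 43 matched 1 Ensembl gene each with a value in every library, out of 13677 genes measured. They comprise 4 genes of complex II, 9 of complex III, the cytochrome c gene Cycs, 13 of complex IV and 16 of complex V, the last including the inhibitor gene Atpif1.

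RNA sequencing had been done on 4 libraries, 2 of wildtype (WT) and 2 labelled FLCNKO, for animals that lack folliculin (gene Flcn), a tumour suppressor, in fat. The question of the series is the role of folliculin and mTOR signalling in browning, in which white fat takes on features of heat-producing fat. The sources used here do not give strain, sex, age, alleles or the promoter that drives the deletion. They tie no library to an animal, and p-values therefore reflect the spread between these libraries alone. Values are the authors' deposited log2 values, with nearly equal distributions in all libraries. The depth behind them is unknown. They are not scaled by gene length, so levels are compared between libraries and not between genes.

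The oxidative phosphorylation chain of the inner mitochondrial membrane passes electrons to oxygen and makes ATP. Complex II, succinate dehydrogenase, also runs a step of the tricarboxylic acid cycle. Complex III hands electrons to cytochrome c, complex IV hands them on to oxygen, and complex V, the ATP synthase, uses the resulting proton gradient. Brown and beige adipocytes are rich in this machinery, while white adipocytes hold few mitochondria.

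The label and the tissue were checked first. Flcn itself did not separate the groups, with 12.36 and 12.21 in WT and 12.35 and 12.12 in FLCNKO. Which exons were deleted is not known here, so this checks nothing. Of the 10 white adipocyte markers all were measured, and their summed level was 5.26% and 5.12% of the summed linear level of all genes in WT and 4.53% and 4.82% in FLCNKO. Skeletal muscle markers, 15 of 15 measured, summed to 0.222% and 0.0268% in WT and to 0.102% and 0.0134% in FLCNKO. Macrophage and fibroblast markers were lower in both FLCNKO libraries, 0.151% and 0.123% against 0.264% and 0.235% for macrophages, and 0.639% and 0.576% against 1.31% and 1.19% for fibroblasts. Such bulk values cannot tell fewer cells of a type from less RNA per cell.

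Most subunit genes of complexes II to V were higher in the FLCNKO libraries. The median log2 difference over the 43 genes was 0.80, a 1.74-fold difference, against 0.0046 over all genes. Both FLCNKO libraries lay above both WT libraries for 37 of the 43 genes, where this held for 29.2% of all genes. It was so for all 4 genes of complex II, all 9 of complex III, Cycs, 10 of 13 of complex IV and 13 of 16 of complex V. The medians were 0.88 for complex II, 0.84 for complex III, 0.72 for complex IV and 0.59 for complex V, and differences between complexes were not tested.

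Few single genes passed the test. Differences were tested with limma, and a gene was called at a Benjamini-Hochberg adjusted p under 0.05, counting all 13677 genes. By this test 4 of the 43 genes rose (Sdhb, Uqcrc1, Cyc1 and Cox5b) and 0 fell, while 0.980% of all genes rose and 0.614% fell. A further 13 genes had adjusted p-values between 0.05 and 0.1. At an unadjusted p under 0.05, 34 of the 43 were higher and 0 lower, against 12.1% and 10.3% of all genes. The 4 calls were lost when any 1 library was left out and when the variance was moderated without its trend on mean level. Under those settings limma called 0 genes of all 13677.

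Most members had high deposited values, so genes with values in the same range were counted as well. Of the 35 members with a mean of at least 12, 4 rose and 0 fell, against 1.72% and 1.44% of all 3601 genes of that level. At an unadjusted p under 0.05, 32 of these 35 were higher, against 16.9%, and 0 were lower, against 15.0%. Both FLCNKO libraries were above both WT libraries for 34 of them, against 32.4%, and below for 0, against 31.8%. A difference of at least 0.5 was found for 30 of the 35 and for 33 of all 43, against 11.1% of genes of that level and 12.8% of all genes.

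**Figure D1:**
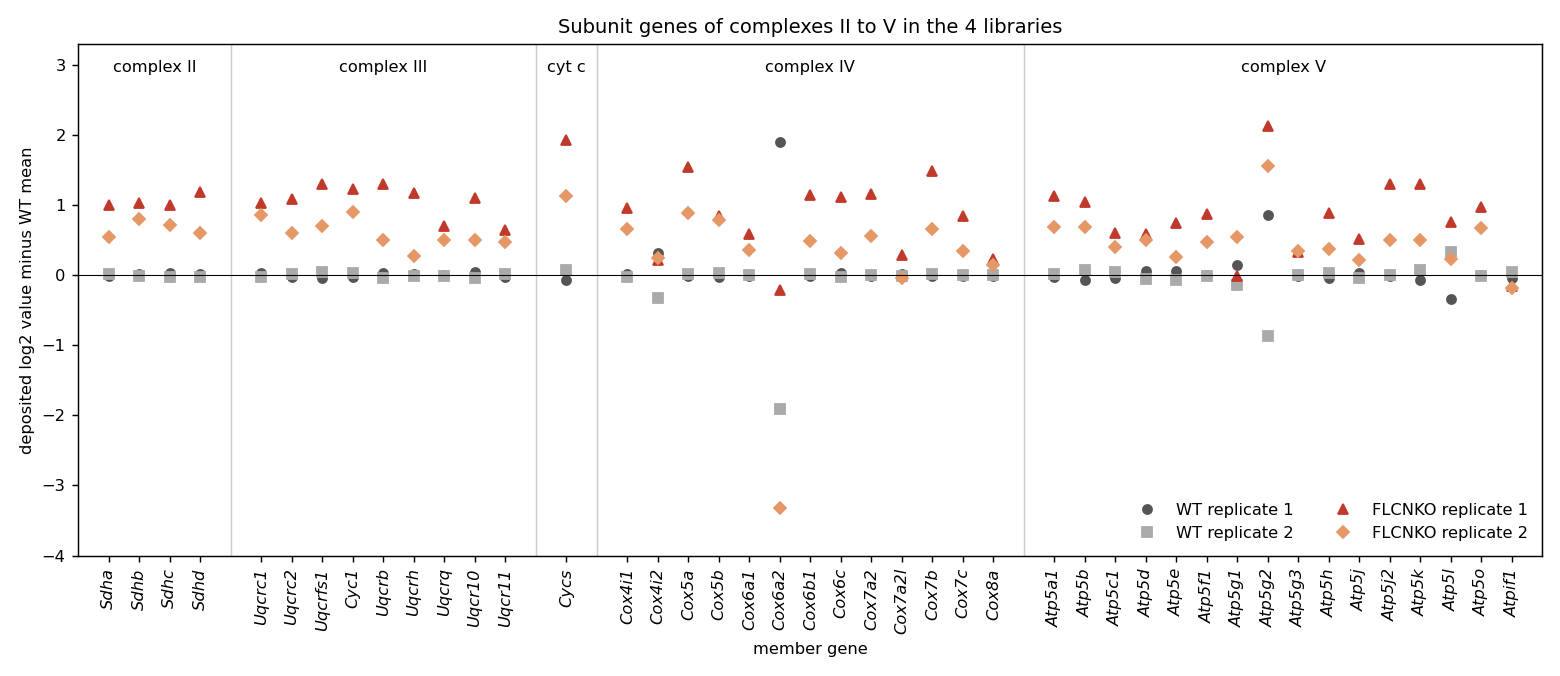
Deposited log2 value of each of the 43 genes in each library, minus the mean of its 2 WT values, with genes grouped by complex. WT points lie near 0 for most genes, both FLCNKO points lie above them for 37 genes, and FLCNKO replicate 1 (red triangles) lies above replicate 2 (orange diamonds) for 40.

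The FLCNKO libraries differed from each other far more than the WT libraries did. The median absolute difference over the 43 genes was 0.0518 between the WT libraries and 0.458 between the FLCNKO libraries, against 0.147 and 0.247 over all genes. FLCNKO replicate 1 was above replicate 2 for 40 of the 43 genes, where 48.6% of all genes and 49.9% of those with a mean of at least 12 had that order. The median distance from the WT mean was 1.0 in replicate 1 and 0.50 in replicate 2. The exceptions were Atp5g1, at 8.85 in replicate 1 and 9.42 in replicate 2, and Cox4i2 and Atp5g3, whose replicates differed by 0.034 and 0.010. The gap was widest for Cox6a2 (3.11), followed by Uqcrh (0.89), Cox7b (0.83), Uqcrb (0.81), Cox6c (0.80) and Cycs (0.80), which were chosen after their values were seen. It was 0.060 for Cox5b.

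Transcript length was set beside this gap. Among the 35 members with a mean of at least 12, the median of replicate 1 minus replicate 2 was 0.32 for the 24 whose annotated coding transcripts have a median length under 1000 bases and 0.45 for the 11 longer ones. Over all genes of that level the corresponding medians were 0.097 and -0.020. The Spearman correlation of this difference with transcript length was -0.137 over the 35 members and -0.256 over 3572 genes of that level. Between the WT libraries it was -0.247 and -0.129. Each annotated coding transcript counted alike in these lengths, so a gene's main transcript may be longer than its median, which was 533 bases for Uqcrc1. The part of transcript length in the gap was not tested.

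Markers of brown adipocytes and muscle also differed between the libraries. The 8 brown and beige adipocyte markers summed to 0.0242% and 0.0169% in WT and to 0.165% in FLCNKO replicate 1 and 0.0547% in replicate 2. FLCNKO replicate 1 also had the higher sum for muscle, macrophage, fibroblast and lymphocyte markers. It had the lower sum for white adipocyte, endothelial and epithelial markers. Such a sum weights the genes with the highest values, and the 8 brown and beige markers did not move together. Cidea, Elovl3, Otop1 and Cpt1b had both FLCNKO libraries above both WT libraries, and of these Otop1 rose (limma adjusted p = 0.0404). Ebf2 had both below, at 12.58 and 12.61 in WT and 12.02 and 11.83 in FLCNKO (adjusted p = 0.0629). Dio2 and Prdm16 overlapped, with differences of -0.080 and 0.016. The WT values of Ucp1, the gene of uncoupling protein, were 10.60 and 7.42, and the FLCNKO values 13.79 and 10.06, so the groups overlapped. The part of these cells in the result was not tested. The summed level of the muscle markers also differed between libraries, with 0.222% and 0.0268% in WT and 0.102% and 0.0134% in FLCNKO, and its part in the result was not tested.

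**Figure D2:**
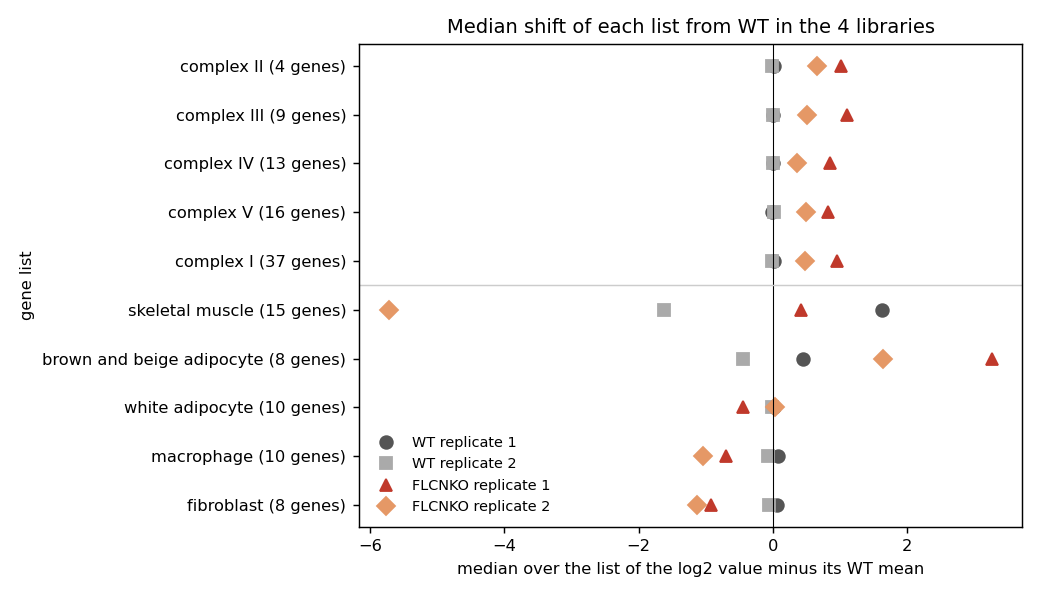
Median, over the genes of each list, of the log2 value minus the WT mean of the gene, in each library. The 4 complexes, complex I and the brown and beige markers order the libraries as FLCNKO replicate 1, FLCNKO replicate 2 and then WT. Skeletal muscle markers are low in FLCNKO replicate 2 and separate the WT libraries.

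The promoters of these genes are known for sites of the nuclear respiratory factor NRF1, of ETS factors such as GABPA, of YY1 and of the estrogen-related receptors. Promoter windows from RefSeq (build GRCm38.p6, 250 bases before to 50 after the start) were present for 32 of the 43 genes. Exact matches were counted on both strands. The NRF1 letters, GCGCA, any base and then GCGC, were in the windows of 11 of the 32 genes (34.4%), against 10.8% of 10547 measured genes and 4.6% of all 32851 windows. The 11 were Sdha, Sdhd, Uqcrc1, Cox6a1, Atp5c1, Atp5g2, Atp5g3, Atp5h, Atp5k, Atp5o and Atpif1. The ETS letters CCGGAAGT were in 4 windows (12.5%, against 8.65% of measured genes and 3.89% of windows). The estrogen-related receptor letters TCAAGGTCA were in 2 (6.25%, against 0.332% and 0.423%). For the YY1 letters AAGATGGCG the count was 2 (6.25%, against 3.41% and 1.40%), and likewise 2 for TCACGTG (6.25%, against 6.70% and 3.77%), the E-box type bound by the MiT/TFE factors that folliculin restrains. No match of one motif overlapped a match of another, and some NRF1 matches read the same on both strands. The median log2 difference was 0.77 for the 11 genes with NRF1 letters and 0.80 for the 21 without. Stretches before the start that carry matches are shown for 5 genes, as examples of the 3 kinds of match in genes whose differences ran from 0.33 for Atp5g3 to 0.89 for Sdhd. Genes with larger and smaller differences also held matches. Each is written 5′ to 3′ on the minus strand with the matches in capitals.
Sdha, chr13:74350281-74350350, 2 NRF1 matches: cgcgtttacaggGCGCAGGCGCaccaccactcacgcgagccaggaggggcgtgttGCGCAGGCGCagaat
Sdhd, chr9:50603880-50603939, 1 NRF1 match: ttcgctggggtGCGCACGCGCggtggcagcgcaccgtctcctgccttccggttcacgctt
Uqcr11, chr10:80406862-80406921, 1 ETS match: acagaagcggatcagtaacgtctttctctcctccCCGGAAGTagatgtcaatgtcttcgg
Cox6a1, chr5:115349054-115349133, 2 NRF1 matches: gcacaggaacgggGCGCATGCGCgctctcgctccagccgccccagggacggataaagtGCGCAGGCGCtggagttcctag
Atp5g3, chr2:73911337-73911396, 1 receptor match on the other strand: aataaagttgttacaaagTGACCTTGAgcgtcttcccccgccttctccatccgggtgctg

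The motif counts describe letters in these windows only. For some genes the windows may miss the promoter in use: the RefSeq start of Atpif1 lies 1755 bases before the first GENCODE start. The largest offsets the other way, counted as negative, were -3643 and -3683 bases for Atp5d, -2997 for Cox7a2l and -1305 for Atp5g2. The genes with NRF1 letters included Atp5g2, with a log2 difference of 1.85, and Atpif1, with -0.17. The genes of 2 of the factors, outside the rule for named genes, were read as well. Nrf1 was 10.18 and 10.34 in WT and 10.02 and 10.09 in FLCNKO (limma adjusted p = 0.452). Gabpa was 12.11 and 12.07 in WT and 12.63 and 12.35 in FLCNKO (adjusted p = 0.179).

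Complex II oxidises succinate through its flavoprotein Sdha and the iron-sulfur subunit Sdhb, held in the membrane by Sdhc and Sdhd. All 4 genes were higher in both FLCNKO libraries, over a narrow range of log2 differences from 0.77 to 0.92. Sdhb was 14.03 and 14.01 in WT and 15.05 and 14.83 in FLCNKO, so the WT libraries were close together and the groups did not overlap. It rose 1.89-fold, a log2 difference of 0.92 ± 0.12 (SE, with n = 2 in each group here and below; limma adjusted p = 0.0478). Sdhc, at 13.98 and 13.93 in WT and 14.95 and 14.68 in FLCNKO, just missed the threshold (0.86 ± 0.13, adjusted p = 0.0552).

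The other complex II genes had a wider spread within FLCNKO. Sdha was 15.93 and 15.96 in WT and 16.95 and 16.49 in FLCNKO (0.77 ± 0.19; limma adjusted p = 0.10). Sdhd was 14.17 and 14.12 in WT and 15.33 and 14.75 in FLCNKO (0.89 ± 0.21; adjusted p = 0.0954). The complex II median, 0.88, was 0.66 without FLCNKO replicate 1.

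In complex III, Cyc1 (cytochrome c1) and Uqcrfs1 (the Rieske iron-sulfur protein) carry the electrons, Uqcrc1 and Uqcrc2 are the large core proteins, and 5 small supernumerary subunits surround them. The 9 genes had log2 differences from 0.56 to 1.07. Cyc1 was 13.96 and 14.02 in WT and 15.22 and 14.89 in FLCNKO, without overlap, and rose 2.10-fold (1.07 ± 0.15, SE; limma adjusted p = 0.0478). Uqcrc1 was 14.22 and 14.16 in WT and 15.23 and 15.06 in FLCNKO and rose 1.93-fold (0.95 ± 0.12; adjusted p = 0.0431). Uqcrfs1 and Uqcrc2 had differences of 1.0 ± 0.21 and 0.84 ± 0.19 and did not pass (adjusted p = 0.0825 and 0.0880). The supernumerary genes had a median of 0.72, beside 1.04 for the pair of electron carriers and 0.90 for the core pair.

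The smallest differences in complex III were those of Uqcr11 and Uqcrq, both small supernumerary subunits. Uqcr11 was 13.28 and 13.33 in WT and 13.95 and 13.78 in FLCNKO (0.56 ± 0.11; limma adjusted p = 0.0759). Uqcrq was 13.27 and 13.25 in WT and 13.97 and 13.76 in FLCNKO (0.60 ± 0.12; adjusted p = 0.0725). Uqcrh was the 1 gene of the complex with an unadjusted p above 0.05, with an interval from -0.04 to 1.48 for its difference of 0.72. The complex III median, 0.84, was 0.50 without FLCNKO replicate 1.

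Cycs encodes somatic cytochrome c, the mobile carrier between complexes III and IV. It was 9.49 and 9.63 in WT and 11.49 and 10.69 in FLCNKO, so both FLCNKO libraries were above WT but 0.80 apart. The difference of 2.89-fold (1.53 ± 0.28, SE) did not pass (limma adjusted p = 0.0679). Of the 31-base stretches in its transcripts, 29.4% also occur in transcripts of other genes, so its value is uncertain where reads could be split.

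Complex IV, cytochrome c oxidase, has a catalytic core encoded by mitochondrial DNA and nuclear subunits around it, several of which exist as a common and a tissue-specific isoform. The 6 subunits outside the isoform pairs compared here (Cox5a, Cox5b, Cox6b1, Cox6c, Cox7b and Cox7c) were all higher in both FLCNKO libraries, with a median of 0.81 and a range from 0.60 to 1.21. Cox5b was 12.04 and 12.10 in WT and 12.91 and 12.85 in FLCNKO, with the tightest FLCNKO pair of these 6 genes, and rose 1.76-fold (0.81 ± 0.10, SE; limma adjusted p = 0.0452). Cox5a was 13.25 and 13.28 in WT and 14.81 and 14.15 in FLCNKO. Its larger difference, 2.32-fold or 1.21 ± 0.23 on the log2 scale, did not pass (adjusted p = 0.0693). The complex IV median, 0.72, was 0.36 without FLCNKO replicate 1.

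The differences of the common isoforms of complex IV ran from 0.19 for Cox8a to 0.86 for Cox7a2. Their 95% intervals overlapped, and they were not tested against each other. Cox4i1, the usual form of the largest nuclear subunit, was 15.61 and 15.57 in WT and 16.55 and 16.25 in FLCNKO (0.81 ± 0.15; limma adjusted p = 0.0658). Cox7a2 was 13.82 and 13.84 in WT and 14.98 and 14.39 in FLCNKO (0.86 ± 0.21; adjusted p = 0.104). Cox6a1 was 14.41 and 14.43 in WT and 15.01 and 14.78 in FLCNKO (0.48 ± 0.13; adjusted p = 0.116).

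Cox8a and Cox7a2l stood at the low end. Cox8a, the common form of subunit VIII, was 14.50 and 14.51 in WT and 14.73 and 14.65 in FLCNKO. Its groups did not overlap, but the difference was 0.19 ± 0.10 with an interval from -0.08 to 0.45 (limma adjusted p = 0.355). That interval ends below the Cox5b difference of 0.81. Cox7a2l, related in sequence to the Cox7a subunits and known as a supercomplex assembly factor, was 12.84 and 12.82 in WT and 13.11 and 12.79 in FLCNKO. Its groups overlapped (0.13 ± 0.14, interval from -0.24 to 0.49; adjusted p = 0.656), and the difference was -0.035 without FLCNKO replicate 1.

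**Figure D3:**
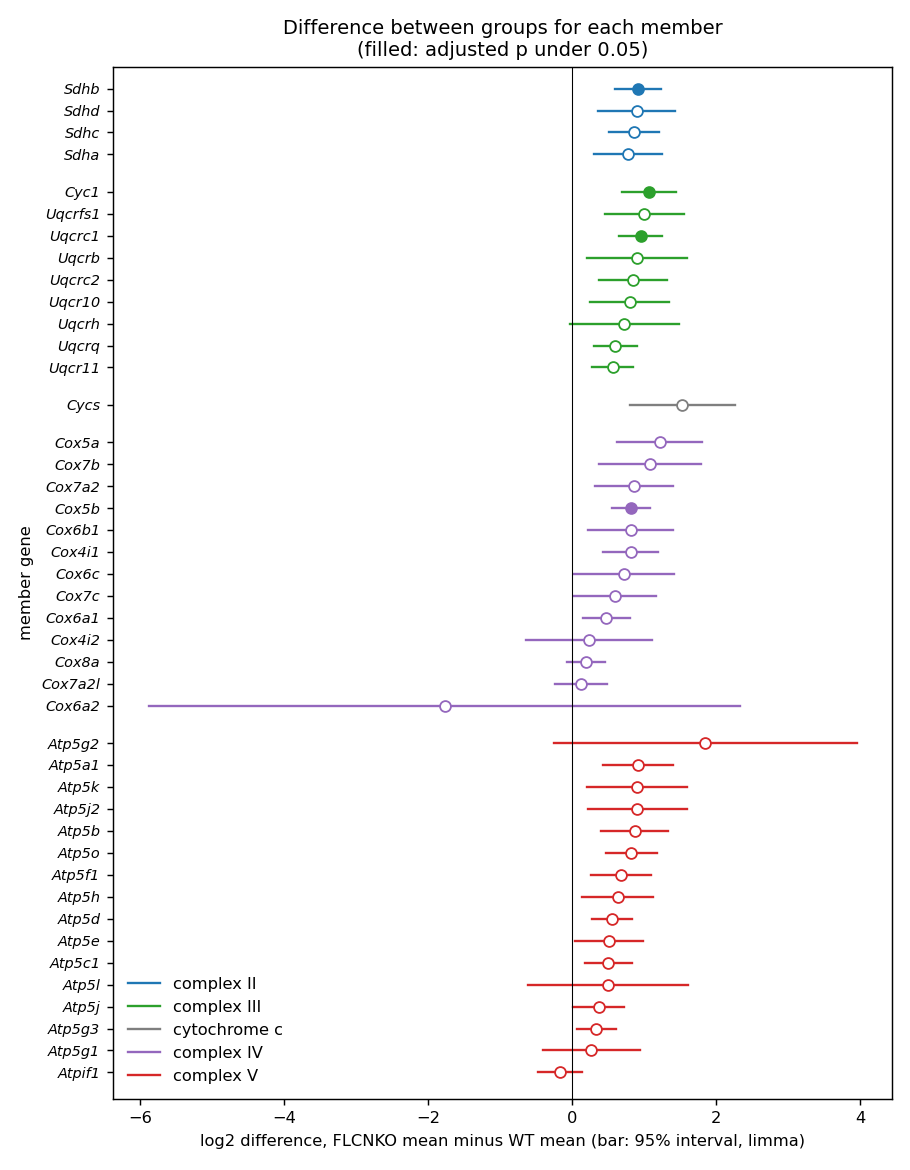
Log2 difference (FLCNKO mean minus WT mean) of each gene with its 95% interval from limma, grouped by complex and ordered by size within it. Filled points mark the 4 genes past the threshold, and the intervals of Cox8a, Cox7a2l and Atpif1 are short and reach across 0.

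For both tissue-specific isoforms of complex IV among the 43 genes the groups overlapped. Cox4i2, the form best known from lung, was 7.75 and 7.11 in WT and 7.65 and 7.68 in FLCNKO, with overlapping groups (0.23 ± 0.34; limma adjusted p = 0.736). The Cox4i2 difference was -0.085 without WT replicate 2. Cox6a2, the form of heart and skeletal muscle that brown fat also expresses, was 9.17 and 5.36 in WT and 7.05 and 3.94 in FLCNKO (-1.77 ± 1.61; adjusted p = 0.574), and its difference was 0.13 without WT replicate 1. Its order of libraries was WT replicate 1, FLCNKO replicate 1, WT replicate 2 and FLCNKO replicate 2. The summed muscle markers had the same order (0.222%, 0.102%, 0.0268% and 0.0134%), and so had the lymphocyte markers (0.0105%, 0.00281%, 0.00276% and 0.00104%). The part of muscle in the Cox6a2 values was not tested.

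Among the isoforms outside the 43 genes, Cox8b and Cox7a1 are the forms of heart, muscle and brown fat that pair with Cox8a and Cox7a2. Cox8b was 12.47 and 12.17 in WT and 15.92 and 15.19 in FLCNKO (limma adjusted p = 0.0336), and Cox7a1 was 9.84 and 8.72 in WT and 13.51 and 12.19 in FLCNKO (adjusted p = 0.0550). Both genes had both FLCNKO libraries above both WT libraries and were higher in FLCNKO replicate 1 than in replicate 2. The part of muscle and brown adipocytes in these values was not tested. The remaining measured isoform outside the 43 genes was Cox6b2, the testis form that pairs with Cox6b1. It was 6.34 and 6.19 in WT and 7.88 and 6.77 in FLCNKO, without overlap (1.06 ± 0.52; adjusted p = 0.303).

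The balance between isoforms was measured as the log2 value of the tissue-specific form minus that of its partner within a library, in which a change is independent of gene length. Cox8b minus Cox8a was -2.02 and -2.34 in WT and 1.19 and 0.54 in FLCNKO, a shift of 3.05. Cox7a1 minus Cox7a2 was -3.98 and -5.11 in WT and -1.47 and -2.20 in FLCNKO, a shift of 2.71. Both shifts went towards the tissue-specific form in both FLCNKO libraries. Cox4i2 minus Cox4i1 shifted the other way, from -7.86 and -8.46 in WT to -8.90 and -8.57 in FLCNKO. Cox6a2 minus Cox6a1 overlapped, at -5.24 and -9.07 in WT and -7.96 and -10.84 in FLCNKO. By a two-sided exact permutation test over libraries p was 0.333 for Cox8, Cox7a and Cox4 and 0.667 for Cox6a. With 2 libraries against 2 that test cannot go below 0.333, so no balance could pass, and 6 pairs were computed in all. Leaving out 1 library moved the Cox4 shift of -0.58 between -0.88 and -0.28, both ends by a WT library, and the Cox6a shift of -2.25 between -4.16 and -0.33, also by a WT library. The Cox6a shift was -3.69 without FLCNKO replicate 1 and -0.81 without FLCNKO replicate 2.

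**Figure D4:**
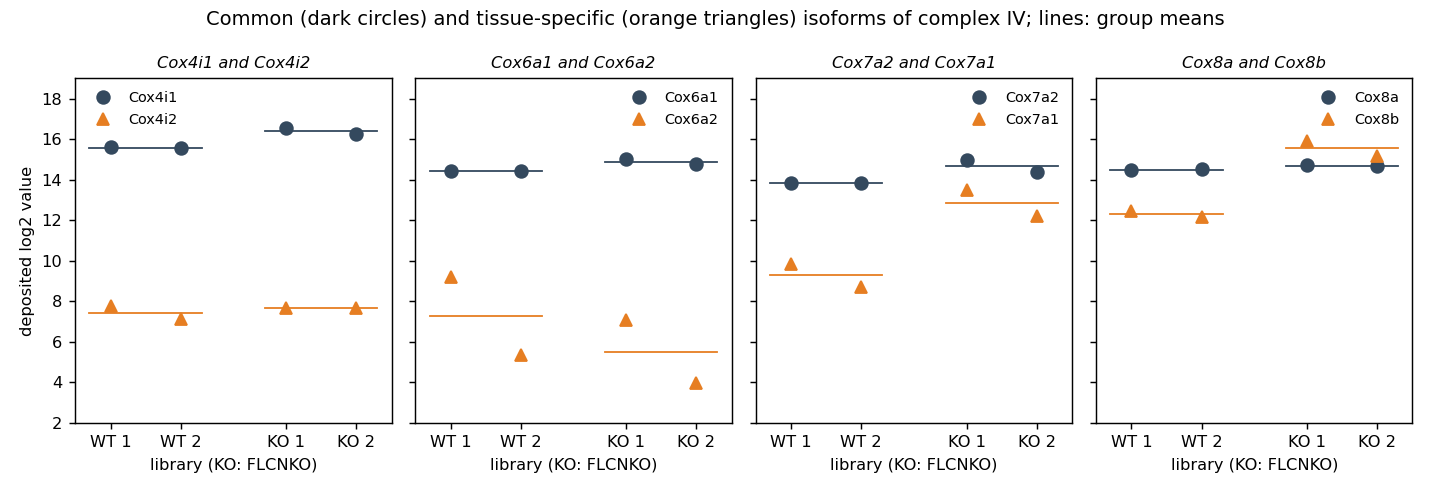
Deposited log2 value in each library of the common isoform (dark circles) and the tissue-specific isoform (orange triangles) for the 4 isoform pairs of complex IV, with lines at the group means. Cox8b and Cox7a1 are higher in both FLCNKO libraries, Cox4i2 stays between 7.11 and 7.75, and Cox6a2 is spread from 3.94 to 9.17.

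Complex V makes ATP in its F1 head, which is turned by a ring of c subunits and held by a peripheral stalk. limma called 0 of its 16 genes, where 0.980% of all genes rose and 0.614% fell. At an unadjusted p under 0.05, 12 of the 16 were higher and 0 lower, against 12.1% and 10.3% of all genes. All 5 F1 genes were higher in both FLCNKO libraries, with differences from 0.50 to 0.91. Atp5a1, the alpha subunit, was 16.41 and 16.45 in WT and 17.56 and 17.11 in FLCNKO (0.91 ± 0.19, SE; adjusted p = 0.0798). Atp5d, the delta subunit, was 13.49 and 13.38 in WT and 14.03 and 13.94 in FLCNKO, a smaller but tighter difference (0.55 ± 0.11; adjusted p = 0.0724).

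The 4 peripheral stalk genes (Atp5f1, Atp5h, Atp5j and Atp5o) were all higher in both FLCNKO libraries, from 0.37 to 0.82. Atp5o, the oligomycin sensitivity protein that joins stalk and head, was 14.02 and 14.00 in WT and 14.98 and 14.68 in FLCNKO. Its difference of 1.77-fold (0.82 ± 0.14; limma adjusted p = 0.0619) had the smallest p of the complex, and 49.6% of its 31-base stretches occur in other genes' transcripts. Of the membrane accessory genes, Atp5j2 and Atp5k each had a difference of 0.90, and Atp5l was low, at 6.45 and 7.11 in WT and 7.54 and 7.01 in FLCNKO, with overlapping groups.

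The c-ring is encoded by Atp5g1, Atp5g2 and Atp5g3, which give the same mature protein with different import sequences. Atp5g3 was 14.91 and 14.92 in WT and 15.24 and 15.25 in FLCNKO. It thus differed by only 0.33 ± 0.10 (1.26-fold; limma adjusted p = 0.156), yet alike in both FLCNKO libraries. Atp5g1 was 9.01 and 8.72 in WT and 8.85 and 9.42 in FLCNKO, with overlapping groups (0.27 ± 0.26; adjusted p = 0.607), and its difference was -0.018 without FLCNKO replicate 2. Atp5g2 was 5.73 and 4.0 in WT and 7.0 and 6.43 in FLCNKO (1.85 ± 0.82; adjusted p = 0.268). Of the Atp5g2 stretches 40.2% are shared with other genes, so its difference is uncertain. Leaving out WT replicate 2 gave 0.99 for it, and leaving out WT replicate 1 gave 2.71. The balance of Atp5g2 to Atp5g3 shifted by 1.52 without overlap (exact permutation p = 0.333) and that of Atp5g1 to Atp5g3 by -0.067 with overlap (p = 1). Without WT replicate 2 the Atp5g2 shift was 0.64, and without WT replicate 1 it was 2.39.

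Atpif1 encodes the inhibitor that stops the ATP synthase from running backwards. It was the 1 gene of the 43 with both FLCNKO libraries below both WT libraries, where 25.4% of all genes had that order. Its values were 10.90 and 10.99 in WT and 10.79 and 10.76 in FLCNKO, a difference of -0.17 ± 0.12 (limma adjusted p = 0.461) with an interval from -0.48 to 0.13. The upper end of that interval lies below the lower ends for Atp5a1 (0.43), Atp5b (0.40) and Atp5o (0.47), the highest lower ends of the complex. It lies above the lower ends for Atp5e (0.03), Atp5j (0.02), Atp5g3 (0.07), Atp5g1 (-0.40), Atp5g2 (-0.26) and Atp5l (-0.61). Differences between genes were not tested. As 31.5% of the 31-base stretches of Atpif1 are shared with other genes, its value is uncertain.

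Level and sequence sharing were compared with the size of the difference across genes, which are not independent replicates and share the same 4 libraries. The Spearman correlation of the log2 difference with the mean level was 0.227 over the 43 genes and 0.104 over the 35 with a mean of at least 12. With the share of 31-base stretches found elsewhere it was -0.013. The 8 genes with a mean under 12 had a median difference of 0.38 and the 35 others 0.81. Besides Atp5o, Atp5g2, Atpif1 and Cycs, more than 25% of stretches were shared for Uqcrb (34.8%) and Atp5h (25.4%). These 6 genes shared the most sequence by this measure, and Cox7c came next at 24.5%. How reads of shared sequence were assigned in the deposited values is not known.

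Other genes of the chain were set beside these. Of 6 protein genes of mitochondrial DNA in complexes III to V, 2 had values. Both were at shared top values of the deposited scale: mt-Co1 was 20.88 in both WT and 21.66 in both FLCNKO libraries, and mt-Cytb was 19.93 and 20.27 in WT and 20.88 in both FLCNKO libraries. With such ties their spread is not a replicate error (limma adjusted p = 0.170 and 0.163). The list of 37 complex I genes included Ndufa4, since assigned to complex IV. Ndufa4 was 14.71 and 14.76 in WT and 15.68 and 15.01 in FLCNKO. Of the 37 genes, 1 was past the threshold, Ndufv1, where 0.980% of all genes rose and 0.614% fell. Both FLCNKO libraries were above both WT libraries for 36 of the 37, against 29.2% of all genes. The median of the complex I list was 0.69. The list of assembly genes for complexes II to V also held genes that act on mitochondrial mRNA or its translation, among them Lrpprc and Taco1. Of its 32 measured genes, 1 rose (Lrpprc, from 12.15 and 12.18 to 13.26 and 12.99) and 0 fell. The median of this list was 0.63, and 31 of the 32 had FLCNKO above WT without overlap, against the same 29.2%.

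Of 7 regulators of mitochondrial biogenesis, 3 rose and 0 fell, against 0.980% and 0.614% of all genes. The coactivator genes Ppargc1a and Ppargc1b were 9.53 and 9.74, and 8.48 and 9.01, in WT. In FLCNKO they were 10.70 and 10.82, and 10.49 and 10.54 (limma adjusted p = 0.0476 and 0.0438). The receptor gene Esrrg was 7.66 and 7.27 in WT and 10.55 and 9.85 in FLCNKO (adjusted p = 0.0405). Esrra and Tfam, named after their values were seen, were not called. Esrra was 11.15 and 11.37 in WT and 11.91 and 11.76 in FLCNKO (adjusted p = 0.0991). Tfam was 11.39 and 11.36 in WT and 11.74 and 11.28 in FLCNKO, with overlapping groups (adjusted p = 0.72). Nrf1 had both FLCNKO libraries below both WT libraries, and Gabpa had both above. FLCNKO replicate 1 was above replicate 2 for 4 of the 7 regulators, Esrrg among them, and below it for 3, among them Ppargc1a and Ppargc1b, by 0.11 and 0.057.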

How the data were processed

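Each library came as a table of log2 values per Ensembl gene, deposited by the authors. Per the submitters' processing notes, STAR and limma were used with mouse build mm9, and no version is named. For annotation, counting program and strand the sources used here give nothing. Library medians lay between 10.7636 and 10.7645, as after quantile normalization, so a change common to most genes would be hidden.

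Symbols were matched by Ensembl identifier (GENCODE M21) for 13592 of 13677 genes. Groups came from library titles. limma 3.58.1 (R 4.3.3) was fitted to all genes without a filter, with group as the only term and a trend on mean level (residual degrees of freedom 2, prior 3.09). Tests were two-sided, and the fit was tested on simulated data. Members, lists and the rule for named genes were chosen with earlier results of these data known. The rule named members past the threshold, the 3 smallest p and 2 lowest differences per complex, isoform pairs, Cycs and Atpif1. Uqcrfs1, Uqcrc2, Uqcrh, Atp5b, Atp5e, Atp5j, Atp5j2, Atp5k, Atp5l and the genes with the widest gaps were named after their values were seen. Markers of 8 cell types were listed: besides those reported, endothelial markers summed to 0.0422% and 0.0405% in WT and 0.0369% and 0.0466% in FLCNKO, lymphocyte markers to 0.0105% and 0.00276% and to 0.00281% and 0.00104%, and epithelial markers (3 of 6 measured) to 0.000436% and 0.000676% and to 0.000337% and 0.000509%. Alternatives were a filter, other scalings, moderation without the trend or robust, array weights, a replicate block and leaving out each library. Shared sequence is the share of 31-base stretches found in GENCODE transcripts of other genes. Figures used matplotlib 3.10.9.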

Additional observations from a re-analysis of the deposited data

How the results depend on the processing

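Directions were stable for most results, and counts of calls were not. Over all 43 genes, limma called 4 higher, 0 without the variance trend, 9 with a replicate block and 0 to 0 when each library was left out in turn. Complex II had 1 call, 2 with the filter on a mean of 8, with array weights and with the replicate block, 0 without the trend and 0 to 0 leaving out libraries. Complex III had 2, 0 without the trend and 0 to 0 leaving out libraries. Complex IV had 1, 0 without the trend, 3 with the block and 0 to 0 leaving out libraries. Complex V had 0, and 1 with the block, which was Atp5o. At an unadjusted p, 18 to 37 members were higher when a library was left out. The cause of these losses was not tested; each leaves 1 library in a group, assumed to vary like the others.

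Leaving out libraries moved the median between 0.50 and 1.0 for all members, 0.66 and 1.01 for complex II, 0.50 and 1.10 for complex III, 0.36 and 0.85 for complex IV and 0.49 and 0.82 for complex V, each low end without FLCNKO replicate 1 and each high end without FLCNKO replicate 2. Differences reversed for Cox4i2 (-0.085 without WT replicate 2, up to 0.55), Cox6a2 (0.13 without WT replicate 1, down to -3.68), Cox7a2l (-0.035 without FLCNKO replicate 1, up to 0.29) and Atp5g1 (-0.018 without FLCNKO replicate 2, up to 0.55), and the balance of Atp5g1 to Atp5g3 ranged from -0.35 to 0.21. Other scalings and robust moderation kept the counts of members called. Over all genes 218 were called, 344 with robust moderation and 842 with the block. Replicate numbers are shared by the groups, but no label says that they pair libraries. Over all genes the difference between replicates 1 and 2 correlated between the groups (r = 0.363), and the 2 pairs are too few to settle the pairing. No depth is known, so limits of detection cannot be given.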
